A study of Mus musculus with 4 samples.

Results

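Transcripts of the synaptic vesicle and exocytosis machinery were examined in an anti-YTHDF2 RNA immunoprecipitation (RIP) of the newborn mouse retina. The members were chosen by gene symbol alone: synaptotagmins, syntaxins, VAMPs, syntaxin-binding proteins, synapsins, SV2 proteins, RIM, Munc13 and complexin family members, together with Snap23, Snap25, Snap29, Snap47, Snap91, Bsn, Pclo, Nsf, Napa, Napb, Syp, Dnm1, Amph and Synj1. This gave 77 of the 52550 genes in the table, of which 66 had enough counts to be tested among 13632 tested genes. Retinas of wild-type C57BL/6 mice at postnatal day 0 were dissociated with papain. In each of 2 biological replicates RNA was sequenced before the pulldown (input) and after elution from the anti-YTHDF2 beads (RIP), so that there were 4 libraries, 2 per group, from whole retina. The study's methods also describe control IgG, which was not analysed here, so that "higher in RIP" below means higher relative to input and not relative to a mock pulldown.

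YTHDF2 is a cytoplasmic reader of N6-methyladenosine (m6A) that recruits the deadenylation machinery to methylated mRNAs. Neurotransmitter release runs on a small set of proteins. A vesicle SNARE (VAMP) zips up with the membrane SNAREs (syntaxin and SNAP-25) to fuse the vesicle, Munc13 proteins prepare syntaxin, complexins and synaptotagmins tie fusion to calcium, RIMs, Bassoon and Piccolo organise the active zone, and NSF with the SNAPs takes the spent complexes apart. At birth the mouse retina has few ribbon synapses, and its ganglion, amacrine and horizontal cells are the main neurons that already carry this machinery.

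The stretch around one copy of the m6A consensus is shown for members that were called in RIP and for one relative that was not. The motif searched was GGACT, read on the transcript's own strand only, and of its copies the one nearest to the end of the stop codon is printed in capitals within 29 bases of the GENCODE M21 (GRCm38) transcript. The copy in Stx4a, which fell in RIP, lies in a coding exon and starts 957 bases before the end of the stop codon.
Stx4a, chr7:127841966-127841994, plus strand, coding: gagagaggtgcaGGACTtccaaatttaga
The other windows are from Bsn and Syt11, which were higher in RIP, and from Pclo, the partner of Bsn, which was not. Those of Bsn and Syt11 start 91 and 654 bases past the stop codon in the 3′ UTR, and that of Pclo 1156 bases before its end.
Bsn, chr9:108103190-108103218, minus strand, 3′ UTR: gggcgcagctctGGACTctgcgtataacg
Syt11, chr3:88747030-88747058, minus strand, 3′ UTR: agaggtggggctGGACTtaggactcacta
Pclo, chr5:14788403-14788431, plus strand, coding: agtacaagagaaGGACTaaatatgtccag
A copy of the motif says nothing on its own. It was present in 64 of the 66 tested members (97.0%) and in 93.1% of the 11953 protein-coding genes tested, and m6A itself was not measured in these libraries.

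As a group the members took a larger part of the counts on protein-coding genes in RIP than in input. Such a share also depends on the other coding genes, and no comparable gene list was set beside it. Of 100000 counts on protein-coding genes, 472 and 456 fell on members in input replicates 1 and 2, against 663 and 641 in RIP replicates 1 and 2. Both RIP libraries lay above both inputs, and this was also so without the 3 members that rose, with 440 and 431 against 538 and 520. On the same scale Bsn was at 11.1 and 8.29 in the inputs and 33.0 and 32.9 in RIP. Cplx2, the most abundant member, was at 98.0 and 79.3 against 100.9 and 85.3, overlapping between the groups. With trends on transcript length and GC content out, the median log2 fold change of the members lay 0.01 below that of the other genes. The libraries held 39499994 and 36236531 counts (inputs) and 19530226 and 24903212 counts (RIP). Only 3560122, 3233185, 2183707 and 2064465 of these were on protein-coding genes, and a locus annotated as ribosomal RNA (CT010467.1 with the overlapping AY036118) took 55.0% to 55.5% of input and 85.3% to 87.8% of RIP counts.

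In edgeR's quasi-likelihood test with Benjamini-Hochberg adjustment over all tested genes, 3 of 66 members rose in RIP at an adjusted p below 0.05 (4.54%), among them Bsn and Syt11, and 1 fell, Stx4a (1.52%). Among all tested genes 3.48% rose and 9.78% fell. By wider limits (log2 fold change of at least 1 with an unadjusted p below 0.05), 12 members were enriched (18.2%, against 9.43% of all genes). By the mirrored limits 5 were depleted (7.58%, against 17.2%). The tested members are all protein-coding. Of the 11953 protein-coding genes tested, 10.3% were enriched and 14.7% depleted, and 3.8% rose and 8.13% fell. Enriched members included Syt2, Stxbp6, Bsn, Syt13, Stx16, Syt11, Unc13b, Snap91, Stx12, Syt16 and Syt4, and the depleted ones were Stx4a, Syt5, Rims2, Snap25 and Pclo. With library size alone as the scaling, which moved the median of all genes from -0.05 to 0.27, 8 members rose and 0 fell (845 rises and 998 falls over all genes, against 474 and 1333). Single libraries weighed heavily. Without RIP replicate 1 or 2, 0 members rose and 5 were enriched, where 8 and 9 of all genes rose and 670 and 693 were enriched. Without input replicate 1 or 2, 16 and 19 members rose and 6 fell in each case, where 2340 and 2537 of all genes rose and 2550 and 2766 fell. Both RIP libraries exceeded both inputs for 25 members (29.6% of all genes did), both were below for 18 (31.3% of all genes), and the groups overlapped for 23. The median log2 fold change of the tested members was 0.12, beside -0.05 for the other genes and 0.04 for the protein-coding genes tested. Of the 66 members 36 were above 0.

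**Figure D1:**
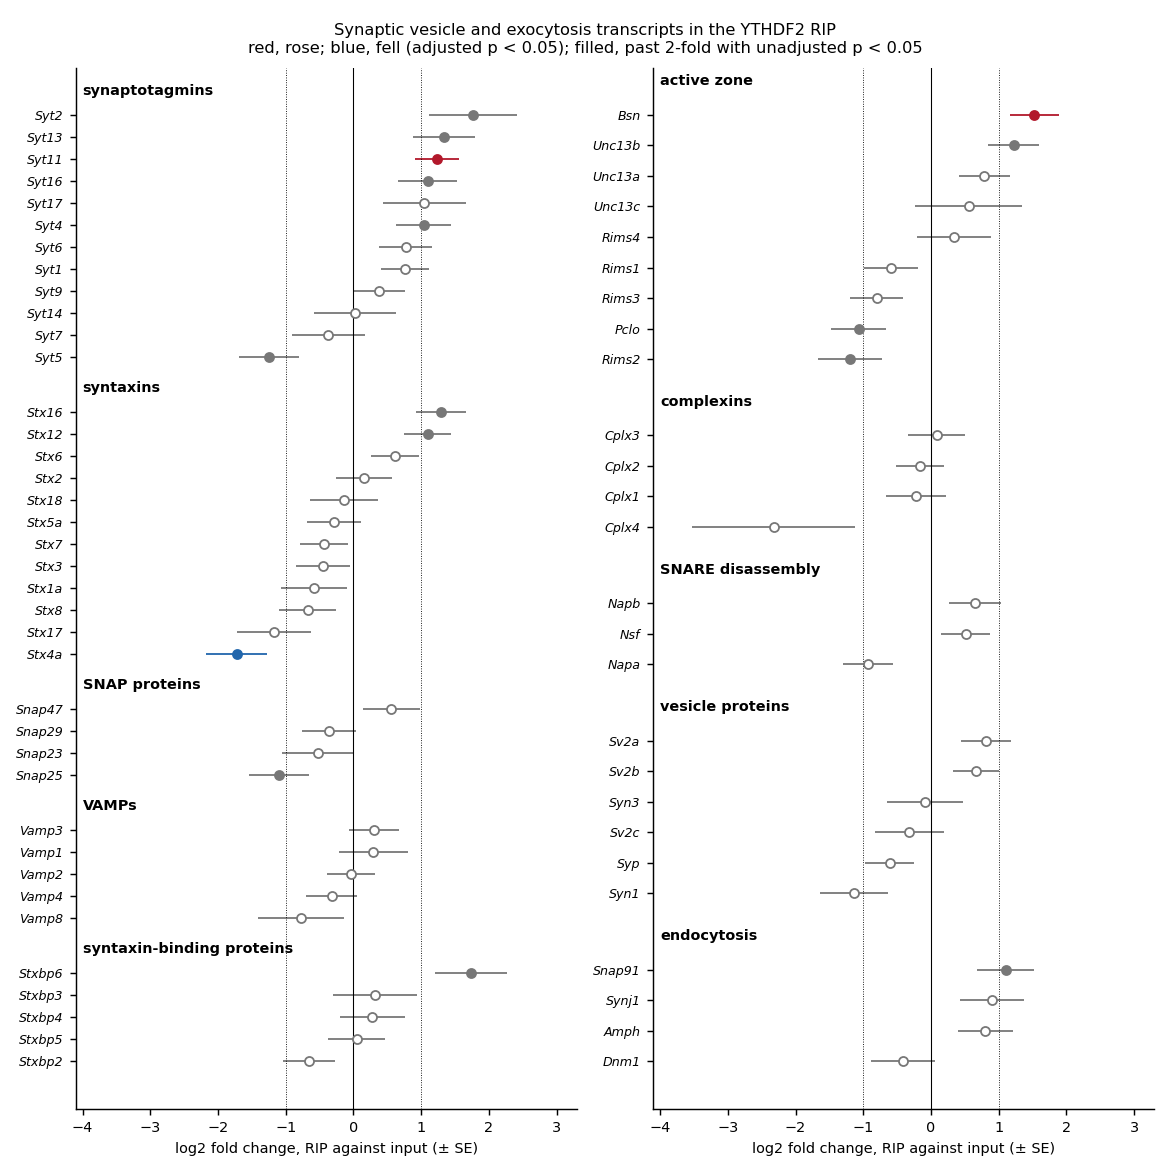
Log2 fold change of RIP against input with its standard error for 64 of the 66 tested members, arranged by role, from 2 libraries per group. Red points rose and the blue point fell at an adjusted p below 0.05, filled points were past the 2-fold limits (dotted lines) at an unadjusted p below 0.05, and synaptotagmins lie mostly to the right of 0 while syntaxins lie on both sides, with Stx4a at -1.73 and Stx16 at 1.29.

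The syntaxins, the membrane-anchored SNAREs that give each fusion step its address, lay on both sides of 0. Stx4a, a plasma membrane syntaxin of constitutive and regulated secretion outside the synapse (ENSMUSG00000030805, chr7:127824294-127849019, plus strand), was the member that fell. It was at 5.31 and 3.93 CPM (counts scaled to the TMM-adjusted library size) in input replicates 1 and 2 and 1.78 and 0.998 CPM in RIP, resting on 177, 135, 45 and 24 counts. The groups did not overlap. The mean went from 4.62 ± 0.972 to 1.39 ± 0.556 CPM (SD, n = 2), a log2 fold change of -1.73 (SE 0.456, edgeR adjusted p = 0.040). Stx4a has the shortest transcript among the tested members (1456 bases), and with trends on transcript length and GC content removed its log2 fold change was -0.998 and no longer called, nor was it without RIP replicate 1 (adjusted p = 0.23) or 2 (0.41). The libraries were made with a strand-specific kit, but the strand setting of the counting is not given in the sources used here, and 5.25% of the exonic bases of Stx4a are annotated on both strands, so that reads there are uncertain. Stx1a, a neuronal syntaxin of transmitter release, was at 2.01 and 1.92 CPM in the inputs and 1.62 and 0.998 in RIP on 67, 66, 41 and 24 counts. Both RIP values were below both inputs, and the log2 fold change was -0.58 (SE 0.484, adjusted p = 0.46).

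The endosomal and Golgi syntaxins lay on both sides of 0. Stx16 and Stx12 were higher in RIP, though not called by edgeR. Stx6 was at 0.61 (edgeR adjusted p = 0.28), while Stx7 was at -0.43 (0.45), Stx8 at -0.68 (0.32) and Stx5a at -0.29 (0.67). Stx16, which works in retrograde traffic to the trans-Golgi network, was at 5.25 and 5.68 CPM in input and 16.2 and 10.5 CPM in RIP, with a log2 fold change of 1.29 (SE 0.370, edgeR adjusted p = 0.053). Stx12, an endosomal syntaxin and the most abundant of the family in input, was at 7.65 and 7.99 CPM against 19.2 and 14.2 CPM, with 1.10 (SE 0.343, adjusted p = 0.070). For both genes the RIP libraries were above both inputs without passing edgeR's adjusted threshold, which Stx16 passed in 5 and Stx12 in 4 of 11 other fits to the 4 libraries, DESeq2 among them (adjusted p = 0.022 and 0.041). Stx17, the autophagosomal syntaxin, gave -1.18 (SE 0.543, adjusted p = 0.19). Of the 13 tested syntaxins 3 were enriched (23.1%, against 9.43% of all genes) and 1 depleted (7.69%, against 17.2%). A fold change above 0 was seen for 5, and the median was -0.29.

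The synaptotagmins, calcium sensors and related C2-domain proteins of vesicle membranes, were above 0 for 10 of the 12 tested (48.1% of all genes were). Of the 12, 5 were enriched (41.7%, against 9.43% of all genes) and 1 was depleted (8.33%, against 17.2%). Their median log2 fold change was 0.90, and their median transcript length 4618 bases against 3100 over all tested genes. Whether the family differs from other genes of its length was not tested. Syt11, a synaptotagmin that does not bind calcium and is linked to endocytosis and lysosomal traffic (ENSMUSG00000068923, chr3:88744700-88775164, minus strand), was at 9.60 and 8.92 CPM in input and at 21.3 and 22.2 CPM in RIP. Replicates lay close together in both groups, and the log2 fold change was 1.23 (SE 0.328, edgeR adjusted p = 0.041). With a replicate block its adjusted p was 0.061 at a log2 fold change of 1.24, so this call depends on the pairing. Without RIP replicate 1 or 2 the adjusted p was 0.31 and 0.32. Syt4, the nearest relative of Syt11, had a similar fold change on fewer counts (1.68 and 2.39 CPM against 4.28 and 4.07; log2 fold change 1.04, SE 0.403, adjusted p = 0.13). The ratio of Syt11 to Syt4 was 5.71 and 3.73 in the inputs and 4.98 and 5.46 in RIP, overlapping between the groups.

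Syt1, the fast calcium sensor of transmitter release, was at 14.9 and 21.8 CPM in the inputs and 33.3 and 29.1 CPM in RIP. Both RIP libraries were higher, with a log2 fold change of 0.76 (SE 0.353, edgeR adjusted p = 0.19). Syt9, whose length-scaled level in input (2.30 and 1.51 FPKM) was not separated from that of Syt1 (1.43 and 2.37 FPKM), overlapped between the groups at 11.5 and 6.67 CPM against 12.3 and 11.3 CPM (log2 fold change 0.38, adjusted p = 0.55). Syt2, another fast sensor, had the largest fold change of the family, 1.76 (SE 0.649, adjusted p = 0.11), but on 17, 9, 33 and 32 counts only. Syt13 and Syt16 gave 1.34 and 1.09. Syt5 was lower in RIP without being called, at 4.35 and 2.71 CPM against 1.31 and 1.66 CPM (log2 fold change -1.25, SE 0.445, adjusted p = 0.10).

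The partners of syntaxin in the core complex were not called by edgeR. Snap25, the plasma membrane SNARE of neurons, was at 8.73 and 20.1 CPM in the inputs and at 7.13 and 6.32 CPM in RIP. Both RIP libraries were below both inputs, but the inputs themselves differed by more than the lower input differed from RIP, and the log2 fold change of -1.10 (SE 0.443, edgeR adjusted p = 0.14) was -0.38 without input replicate 2 and -1.58 (adjusted p = 5.87e-05) without input replicate 1. Vamp2, the synaptic vesicle SNARE, was at 52.5 and 34.2 CPM against 42.8 and 42.0 CPM, with the RIP libraries between the inputs. Its log2 fold change was -0.03 (SE 0.355), its sign changed with the scaling (0.32 with library size alone), and it was the second most abundant member. Vamp1 and Vamp3 gave 0.29 (SE 0.512) and 0.30 (SE 0.368). For the 5 tested VAMPs edgeR called 0, also at an unadjusted p below 0.05, and DESeq2 called 0. With 3.48% of all genes rising and 9.78% falling, 0 calls among 5 genes do not set the VAMPs apart.

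Of the syntaxin-binding proteins 6 were tested and 1 was enriched (16.7%, against 9.43% of all genes). The enriched gene was Stxbp6 (amisyn), which binds syntaxin in place of VAMP and holds back fusion. It was at 0.990 and 3.03 CPM in the inputs and 7.02 and 6.36 CPM in RIP. Both RIP libraries were above both inputs, which themselves differed widely. The log2 fold change of 1.73 (SE 0.534) had an edgeR adjusted p of 0.067, which became 0.0039 with a replicate block at a log2 fold change of 1.91. It was called in 7 of 11 other fits to the 4 libraries, and leaving out input replicate 1 or 2 gave log2 fold changes of 1.14 and 2.74 (adjusted p = 0.0052 and 3.3e-05). Likewise, leaving out RIP replicate 1 or 2 gave 1.72 and 1.85 (adjusted p = 0.32 and 0.28). Complexins, which clamp and then assist the assembled SNAREs, stayed close to 0 where they were abundant. Cplx2 was at 104.6 and 74.7 CPM against 87.4 and 73.2 CPM (log2 fold change -0.16, SE 0.351, adjusted p = 0.81) and Cplx1 at 7.08 and 3.44 against 4.68 and 4.37 CPM (-0.22, SE 0.441, adjusted p = 0.79). Both were above 0 with library size alone, at 0.21 and 0.15. Cplx4, a complexin of ribbon synapses, was counted 14 and 22 times before the pulldown and 0 and 5 times after it, too rarely for a call (adjusted p = 0.23). For the 4 complexins edgeR called 0, also at an unadjusted p below 0.05, and DESeq2 called 0. Beside the 3.48% of all genes that rose and 9.78% that fell, this does not set them apart either.

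**Figure D2:**
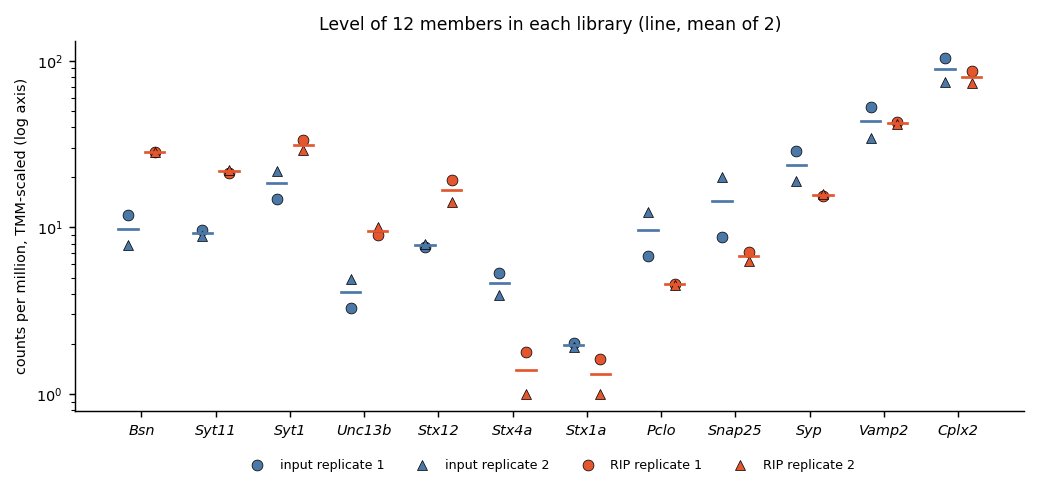
Level of 12 members in each of the 4 libraries, in TMM-scaled CPM on a log axis, with a line at the mean of the 2 libraries of a group. The RIP libraries of Bsn (28.5 and 28.3 CPM), Syt11, Syt1, Unc13b and Stx12 stand above their inputs, those of Stx4a, Stx1a, Pclo, Snap25 and Syp below, those of Vamp2 lie between them, and those of Cplx2 overlap with them.

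At the active zone, the site where vesicles dock, the giant scaffolds Bassoon and Piccolo had fold changes of opposite sign, of which that of Bsn was called. Bsn (ENSMUSG00000032589, chr9:108096022-108190384, minus strand) was at 11.9 and 7.81 CPM in the inputs and at 28.5 and 28.3 CPM in RIP. The groups were well apart, and the log2 fold change was 1.53 (SE 0.361, edgeR adjusted p = 0.028; 0.24 and 0.22 without RIP replicate 1 or 2). Pclo (ENSMUSG00000061601, chr5:14514918-14863459, plus strand) was at 6.75 and 12.4 CPM in the inputs and at 4.60 and 4.53 CPM in RIP. Both RIP libraries were below both inputs, with a log2 fold change of -1.07 (SE 0.408, adjusted p = 0.12), or -1.44 (adjusted p = 0.00026) without input replicate 1 and -0.57 without input replicate 2. Because a ratio of 2 genes within a library is free of any scaling between libraries, Bsn was also set directly against Pclo. Per count of Pclo there were 1.76 and 0.629 counts of Bsn in input and 6.21 and 6.24 in RIP, a log2 difference of 2.56 ± 0.742 (SE). The pair was chosen after its values were seen. With Bsn above and Pclo below both inputs in RIP, the ratios could not overlap between the groups, so this is a description and no further test. A permutation test of 2 against 2 libraries cannot give a two-sided p below 0.333, so none was run on such ratios. Both transcripts are very long, 15938 bases for Bsn and 20084 for Pclo. When trends on length and GC content were taken out, Bsn dropped to 0.54 (adjusted p = 0.26) and Pclo fell by 1.54 (adjusted p = 0.0091), so that the distance between them remained while the one called changed.

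The vesicle-priming Munc13 genes and the RIM genes were not called by edgeR. Unc13b was at 3.27 and 4.87 CPM in input and 8.998 and 10.02 CPM in RIP (log2 fold change 1.22, SE 0.378, edgeR adjusted p = 0.067), and Unc13a was at 3.72 and 4.20 against 5.91 and 7.78 CPM (0.79, SE 0.374, adjusted p = 0.20). Rims2, which tethers calcium channels and vesicles, was at 3.24 and 3.96 against 2.10 and 1.04 CPM (-1.19, SE 0.469, adjusted p = 0.13), and Rims1 at 3.81 and 5.22 against 2.58 and 3.41 CPM (-0.59, SE 0.401, adjusted p = 0.36). Rims3 gave -0.80 (adjusted p = 0.21). The groups did not overlap for these 5 genes, and they overlapped for Unc13c (0.56) and Rims4 (0.34). Such separation was common, with both RIP libraries above both inputs for 29.6% of all tested genes and below for 31.3%. Of the 7 genes 0 passed edgeR's adjusted threshold, where 3.48% of all genes rose and 9.78% fell. At an unadjusted p below 0.05, 1 was higher and 1 lower, and DESeq2 called Unc13b (adjusted p = 0.048). With trends on length and GC content out, Unc13a was at -0.03 and Unc13b at 0.70 (adjusted p = 0.14), while Rims1 (-1.08, adjusted p = 0.048), Rims2 (-1.57, 0.040) and Rims3 (-1.53, 0.020) were called lower. Over the 9 active zone genes 2 were enriched and 2 depleted (22.2% each, against 9.43% and 17.2% of all genes), with a median of 0.34.

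Of the machinery that disassembles SNARE complexes, the ATPase gene Nsf was at 3.84 and 3.56 CPM in input and 5.27 and 5.28 CPM in RIP (log2 fold change 0.51, SE 0.366, edgeR adjusted p = 0.39). Its adaptor alpha-SNAP, encoded by Napa and expressed in most cells, was at 15.1 and 9.88 against 6.58 and 6.53 CPM (-0.93, SE 0.365, adjusted p = 0.13), whereas the brain form Napb was at 3.51 and 4.66 against 6.94 and 5.90 CPM (0.65, SE 0.378, adjusted p = 0.28). Neither passed the test alone. This pair too was chosen after its values were seen, and with Napb above and Napa below both inputs in RIP their ratio had to separate the groups. The count ratio of Napb to Napa was 0.233 and 0.472 in the inputs and 1.05 and 0.905 in RIP, a log2 difference of 1.56 ± 0.522 (SE). The 2 adaptor transcripts were thus about equally counted in RIP and unequally in input. By contrast the ratio of Cplx1 to Cplx2 (0.0677 and 0.0460 against 0.0535 and 0.0596) overlapped between the groups. That of Vamp3 to Vamp2 was 0.0972 and 0.124 against 0.125 and 0.146, so that the groups lay close but did not overlap.

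**Figure D3:**
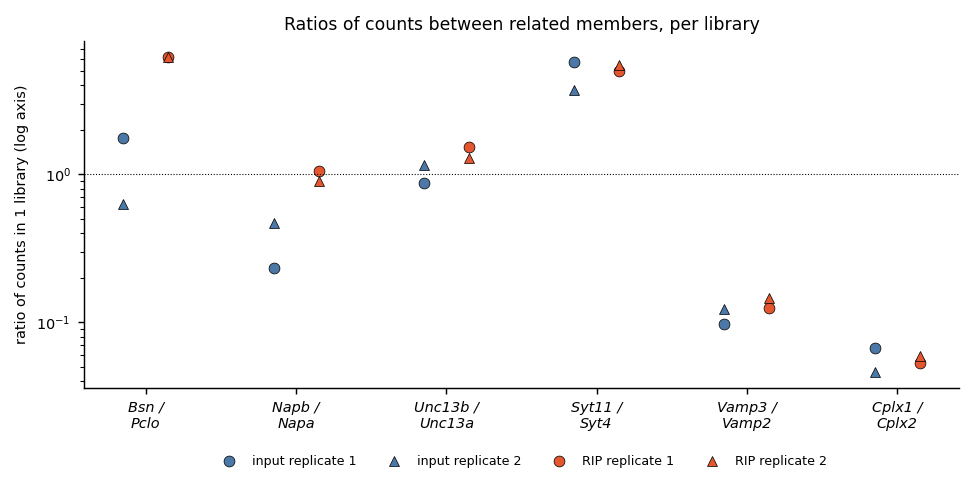
Ratio of the counts of 2 members within each library, on a log axis, for 6 pairs of related genes; blue is input, orange RIP, circles replicate 1 and triangles replicate 2. RIP points lie well above input points for Bsn to Pclo (6.21 and 6.24 against 1.76 and 0.629) and Napb to Napa, slightly above for Unc13b to Unc13a and Vamp3 to Vamp2, and among them for Syt11 to Syt4 and Cplx1 to Cplx2.

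Proteins of the vesicle itself gave 0 calls of 6 tested, and 0 also at an unadjusted p below 0.05 and by DESeq2. Over all genes 3.48% rose and 9.78% fell, so that 0 calls among 6 genes do not set them apart. Syp, synaptophysin of the vesicle membrane, was at 28.8 and 18.9 CPM in input and 15.3 and 15.8 CPM in RIP (log2 fold change -0.61, SE 0.356, edgeR adjusted p = 0.29). Syn1, a synapsin that holds the reserve pool, was at 4.59 and 2.19 against 1.82 and 1.25 CPM (-1.14, SE 0.4997, edgeR unadjusted p = 0.0501, adjusted p = 0.17). Syn2, with input counts of 0 and 3 and RIP counts of 5 and 8, was too sparse to be tested. Sv2a, a vesicle glycoprotein, had a fold change above 0, with 6.09 and 4.05 against 8.92 and 8.86 CPM (0.81, SE 0.372, adjusted p = 0.19). Among the endocytic genes, Synj1 (synaptojanin, which uncoats vesicles) gave 0.90 (SE 0.472, adjusted p = 0.24), Dnm1 (dynamin, which severs them) -0.41 (SE 0.473, adjusted p = 0.61) and Snap91 (the clathrin adaptor AP180) 1.10 (SE 0.419, adjusted p = 0.12).

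In length-scaled units the input was dominated by a handful of members. Mean input levels were 15.4 FPKM for Cplx2, 9.60 for Vamp2, 3.86 for Syp, 2.92 for Cplx3 and 2.77 for Napa. The inputs differed enough that the last 3 of these were not separated, with Syp at 4.43 and 3.29 FPKM, Cplx3 at 3.79 and 2.04 FPKM and Napa at 3.19 and 2.34 FPKM. In all 21 members reached 1 FPKM, 41 were between 0.1 and 1, and 15 were lower. The 11 untested members were Stx11, Stx19, Syt3, Syt8, Syt10, Syt12, Syt15, Stxbp5l, Stxbp3-ps, Syn2 and Vamp5, of which Syt15 and Vamp5 had no count in the 4 libraries.

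Fold change moved with transcript length across the members, as across the table. Spearman's rho between log2 fold change and transcript length was 0.36 over the 66 members and 0.49 over 11953 protein-coding genes, and with the number of GGACT motifs per kilobase it was 0.10 and 0.075. These are descriptions across genes measured in the same 4 libraries, and genes are not independent replicates. The members were longer than the table, with a median of 3892 bases against 3100 for all tested genes with a gene model. With the trends on length and GC content out, the median of the members lay 0.01 below that of the other genes in place of 0.17 above it. Stxbp6 remained at 1.74 in that fit.

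**Figure D4:**
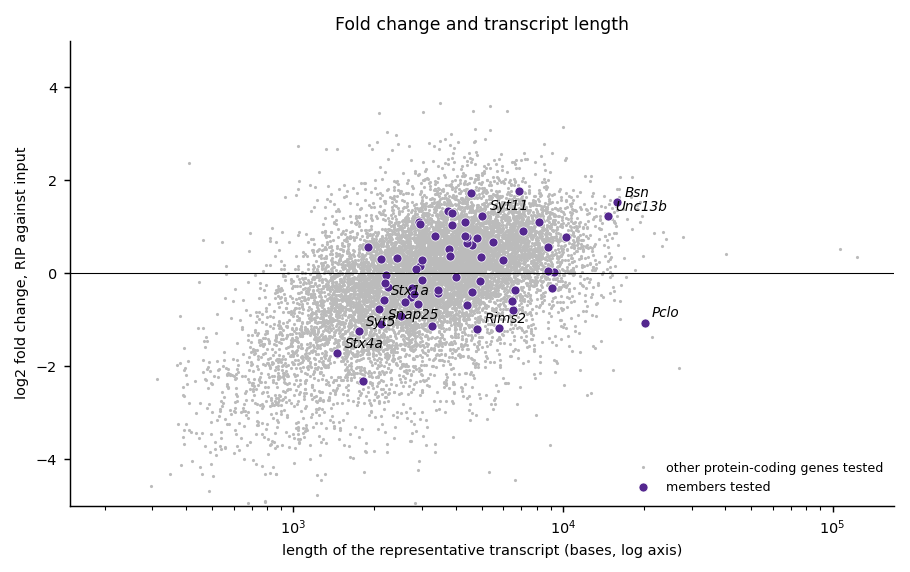
Log2 fold change of RIP against input and length of the representative transcript (log axis) for 64 of the 66 tested members (purple) and the other protein-coding genes tested (grey; 56 genes lie beyond the plotted range of 5 on either side). Stx4a is the shortest member and among the lowest, and Pclo is far below Bsn although both are among the longest transcripts.

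Other genes of the vesicle cycle outside the symbol rule were taken from a list of 102, of which 99 were tested. Of these 3 rose (3.03%, against 3.48% of all genes), 4 fell (4.04%, against 9.78%), 11 were enriched (11.1%, against 9.43%) and 8 depleted (8.08%, against 17.2%), with a median log2 fold change of 0.14. The rises were Scamp1, a secretory carrier protein (3.36 and 6.27 CPM against 20.3 and 22.7; log2 fold change 2.16, SE 0.404, edgeR adjusted p = 0.012), Ppfia3, a liprin of the active zone (1.47, adjusted p = 0.045), and Synpr, the synaptophysin relative synaptoporin (1.81, adjusted p = 0.049). The largest fall was that of Sncg, gamma-synuclein, from 22.9 and 13.7 CPM to 1.59 and 1.79 CPM (-3.44, SE 0.422, adjusted p = 0.0020). The other falls were Use1 (-1.80, adjusted p = 0.029), a SNARE of retrograde traffic to the endoplasmic reticulum, Scamp3 (-1.73, adjusted p = 0.031) and Vti1a (-1.52, adjusted p = 0.046), a SNARE of the Golgi and endosomes. Scamp1 and Scamp3 are relatives that were called in opposite directions, with transcripts of 4259 and 1489 bases. Those of Sncg (852 bases) and Use1 (1064 bases) were also short beside the median of 3100 over all tested genes, while that of Vti1a had 4175. The part of transcript length in these calls was not tested. With a replicate block 5 genes of the list rose and 5 fell, where 721 of all genes rose and 1602 fell. With library size alone 6 rose and 1 fell, where 845 of all genes rose and 998 fell. The calls in the list also moved when a single library was left out, as they did over all genes.

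Sncg is also a marker of retinal ganglion cells, and the other markers of those cells were read beside it. At 10 counts or more in both inputs, 8 of 8 ganglion cell markers were detected, 8 of 8 for amacrine and horizontal cells, 5 of 6 for photoreceptor precursors and 8 of 8 for progenitors, while 1 of 7 lens and 0 of 6 pigment epithelium markers were, 4 of each being at 0 in every library. Of other cell types, 3 of 6 microglia, 2 of 6 endothelial, 2 of 5 erythroid and 1 of 4 astrocyte markers were detected. Summed FPKM of the endothelial list were 4.44 and 4.16 in the inputs and 10.02 and 7.67 in RIP, most of it from Kdr, a vascular growth factor receptor (log2 fold change 1.09, SE 0.326, edgeR adjusted p = 0.061), those of the microglia list 0.792 and 0.683 against 1.25 and 1.27, of the astrocyte list 0.219 and 0.410 against 0.551 and 0.427, and of the erythroid list 0.953 and 0.876 against 0.0560 and 0.424. The median log2 fold changes were -0.61, -0.65, 0.36 and -0.42 for the 4 retinal lists. Summed FPKM of the ganglion cell list were 29.4 and 22.1 in the inputs and 9.49 and 7.22 in RIP. Without Sncg they were 7.74 and 7.43 against 7.32 and 5.39, so that in summed FPKM most of the difference was Sncg. The median log2 fold change of the other 7 was -0.52, with 0 above 0 (48.1% of all genes were) and 0 called. Those of the amacrine and horizontal list were 11.5 and 19.1 against 13.0 and 8.64. The part of single cell types in the values of the members was not tested, and for a level in whole-retina input fewer cells of a type and less RNA per cell cannot be told apart. The share of counts on the ribosomal RNA locus also separated the inputs from the RIP libraries, and its part in the differences cannot be told apart from that of the pulldown.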

How the data were processed

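Per the labels, libraries were made from input and eluted RNA with a stranded kit, and the submitters' processing notes name STAR 2.5, HTSeq and GRCm38. The authors deposited raw counts per gene and FPKM values scaled for length and library size. How HTSeq was set is not given in the sources used here.

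Counts were tested in R 4.3.3 with edgeR 4.0.16 (filterByExpr with a minimum count of 10 and total of 15, TMM, glmQLFit and glmQLFTest, Benjamini-Hochberg adjustment over 13632 genes). A rise or fall means an adjusted p below 0.05. Standard errors came from the fold change and its F statistic. Gene models, lengths and sequences came from GENCODE M21 (GRCm38), with the longest protein-coding transcript for each gene, and held all 77 members. Depth set a floor of 3 counts, 0.0874 to 0.125 CPM, which covers counting error only. The scripts were tested on simulated data.

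The series' design text puts an input and a pulldown in each replicate. The differences of replicate 2 minus 1 correlated by -0.032 (Spearman) and -0.028 (Pearson) between input and RIP over 13632 genes, and the replicate block was an alternative. Alternatives were DESeq2 1.42.0, limma 3.58.1 on log2(FPKM + 0.1) and log2(FPKM + 1), other scalings and filters, trends on length and GC content (mgcv 1.9.3) and each library left out, where the lone library of its group was assumed to vary like the others.

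The members, gene lists and tests were chosen with earlier results of these data known. Genes named are the called members, the most abundant member of each role, core fusion genes, and the 3 lowest p in each direction among called genes of the vesicle cycle list. Stx5a, Stx6, Stx7, Stx8, Stx16, Stx17, Stxbp6, Syt2, Syt5, Syt13 and Syt16 were chosen after their values were seen. So were Unc13b, Unc13c, Rims3, Rims4, Snap91, Napa, Kdr, Cplx3, Cplx4, Vti1a and the pairs of genes. Genes that the rule names but the text does not are not reported here.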

Additional observations from a re-analysis of the deposited data

How the results depend on the processing

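The numbers of members called moved with the fit. Against 3 rises, DESeq2 gave 7, library size alone 8, trends on length and GC content out 5, and log2(FPKM + 1) 5, and leaving out a library gave 0 to 19. Against 1 fall, those trends out gave 5, or 2 with the replicate block as well. Library size alone, log2(FPKM + 0.1), log2(FPKM + 1) and no filter on low counts gave 0. Over all genes, falls were 1333 in the main fit and, in the same order, 1039, 793, 998, 1323, 1332 and 890. The number of members again moved both ways when a library was left out. Against 12 enriched members, trends out gave 7, also with the block, and log2(FPKM + 1) 4, and leaving out a library 5 to 16. Against 5 depleted members, trends out with the block gave 9, library size alone 1, log2(FPKM + 0.1) 2 and log2(FPKM + 1) 0. Depleted genes over the whole table were 2344 in the main fit and, in the same order, 1440, 1725, 2140 and 1055. Leaving out a library moved the numbers of enriched and depleted members both ways as well. The median of the members minus that of other genes was 0.17, 0.43 by DESeq2, 0.44 with no filter, and -0.0119 with trends out. In the vesicle cycle list, rises (3) were 5 by DESeq2, 6 with library size alone, 5 with the replicate block, and 1 with log2(FPKM + 0.1) or no filter, and falls (4) were 7 with trends out and 1 with library size alone or no filter. Leaving out a library gave 0 to 22 rises and 0 to 13 falls. The causes were not tested. The replicate block kept 3 rises, 1 fall and 5 depleted members and gave 13 enriched, and it ended the call of Syt11 and added Stxbp6. Over all genes the block gave 721 rises, 1602 falls, 2307 depleted and 1485 enriched. Of the values of single genes none changed sign while called. With 2 libraries per group, the spread between replicates limits the precision.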
